A study of Homo sapiens with 2 samples.

Results

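The 10 genes described here belong to the transforming growth factor beta (TGF-beta) pathway and were measured in stably transfected C33-A cells, a human cervical carcinoma line of epithelial origin that has long been established and carries no papillomavirus. They are the ligand genes TGFB1 and TGFB2, the latency gene LTBP1, the receptor genes TGFBR1, TGFBR2 and TGFBR3, the mediators SMAD2, SMAD3 and SMAD4, and the SMAD repressor gene SKIL. All probe sets that the platform annotation pairs with exactly 1 of these symbols were taken, which gave 36 probe sets for the 10 genes, of 54675 probe sets and 19775 genes in all. The first line carried the full-length human CA9 cDNA in the plasmid pcDNA3.0, whose viral promoter drives the insert, and is called the CA9 line; CA9 encodes carbonic anhydrase IX, a membrane enzyme induced by hypoxia in many tumours. The other carried the empty vector and is called the vector line. Both were grown as adherent cultures in medium with 10% serum, and RNA was taken on day 4 after seeding. Neither line is described in the labels as a single clone or a pool. Each was measured on 1 Affymetrix array, so no difference below has a replicate check, a standard error or a p-value, and line and culture cannot be told apart. The level of CA9 itself was not analysed here, so the labels were not checked against the transgene.

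TGF-beta ligands are secreted in a latent complex, in which the propeptide is tied by LTBP1 to the extracellular matrix until integrins, thrombospondin or proteases free the active dimer. The ligand joins the type II receptor TGFBR2, which phosphorylates the type I receptor kinase TGFBR1, and that kinase phosphorylates SMAD2 and SMAD3, which enter the nucleus with SMAD4. In epithelial cells this signal is known for halting growth and for a shift towards a mesenchymal state, and SKIL (also called SnoN) holds SMAD complexes inactive.

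The values are intensities on a linear scale, and differences are given on the log2 scale, CA9 line minus vector line. A gene was represented by the brightest of its probe sets, by the mean of its log2 values on both arrays. The floor is an intensity of 40.8, the median over the probe sets without the controls, and genes above it on at least 1 array are called measurable. No member was 2-fold apart. Of 13823 measurable genes 1.35% were (90 higher and 96 lower in the CA9 line, or 69 and 123 after equalising the array medians). At that share most sets of 10 genes would hold none. Members ran from -0.62 for TGFBR1 to 0.82 for TGFBR2, with 4 above 0 and 6 below. Their median was -0.15, against -0.03 over all measurable genes, of which 45.9% were above 0. A smaller size, 0.5 on the log2 scale and chosen after the values were seen, was reached by 4 of the 10 members, TGFB1, TGFBR1, TGFBR2 and LTBP1, against 15.3% of all measurable genes. It is 3 without TGFBR2, whose value in the vector line is below the floor. The count was 0 of 7 members with a value, against 10.3% of all genes, when a gene was taken as the mean of its probe sets, a setting in which TGFB2, TGFBR2 and SKIL are not measurable. It was 1 of 8, against 16.1%, when probe sets named _x_at or _s_at, which can also detect related transcripts, were left out where a gene had another, a setting without TGFBR1 and TGFBR2. All 10 genes were measurable, but TGFBR2 passed only through the CA9 line, in which it is higher. The pooled SD of the log2 differences of probe sets around the mean of their gene was 0.31 over 6186 genes. It is a measure of disagreement within the arrays and not between cultures.

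**Figure D1:**
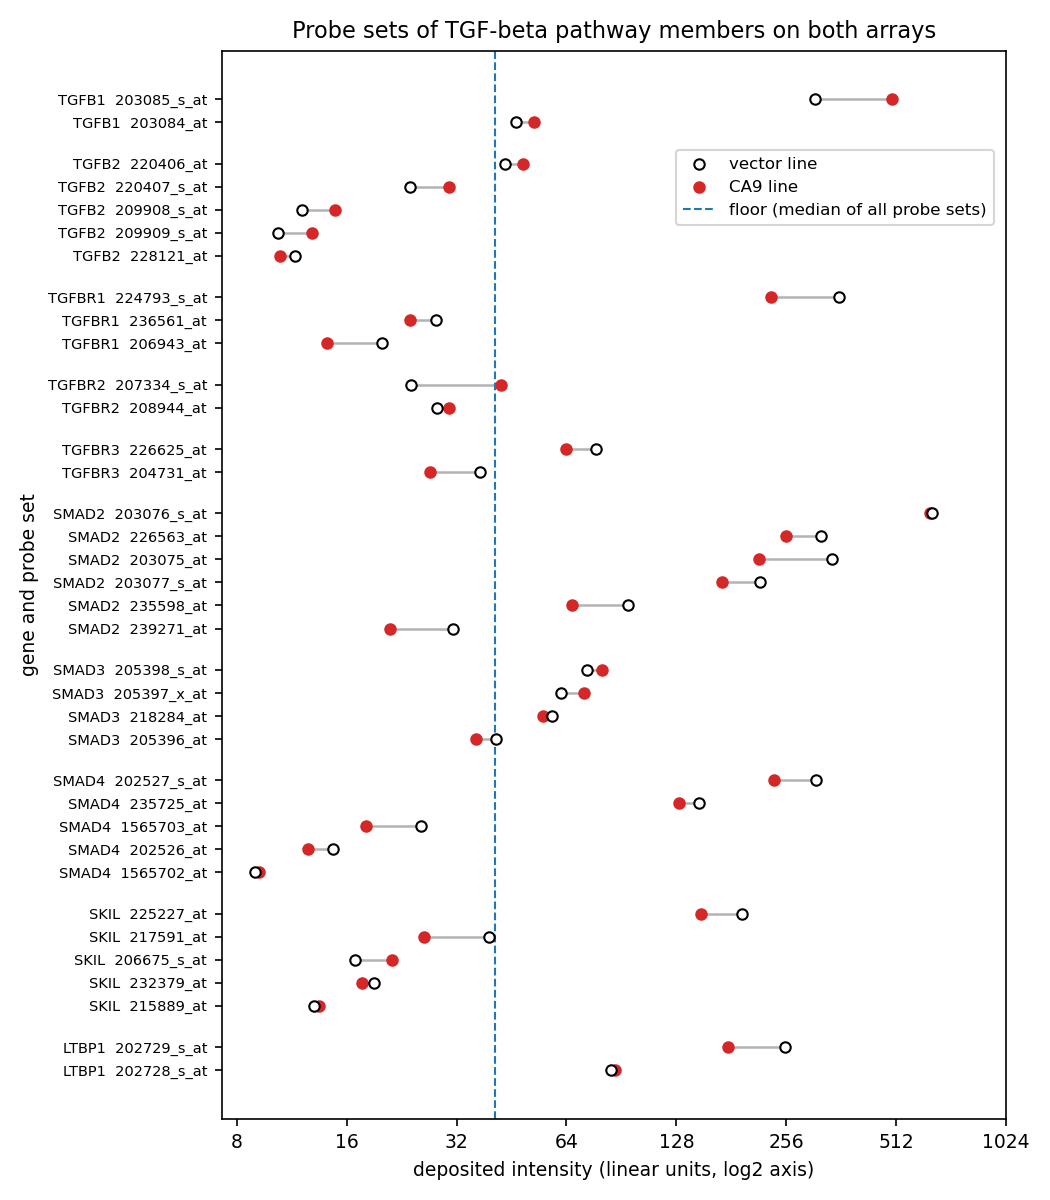
Intensities of the 36 probe sets of the 10 genes on a log2 axis, with the CA9 line as filled and the vector line as open points, 1 array each, and the floor of 40.8 as a dashed line. Of the 36 probe sets, 16 lie below the floor on both arrays, and all 6 of SMAD2 are lower in the CA9 line.

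TGFB1, which encodes the most widely expressed ligand of the family, had the higher intensity in the CA9 line in both of its probe sets. The first, 203085_s_at, read 499 in the CA9 line against 307 in the vector line, a difference of 0.70 or 1.62-fold. The second, 203084_at, had 52.0 and 46.7, a difference of 0.16, so the 2 probe sets differ by 0.54 from each other. Of all measurable genes, 3.08% had a difference as high as that of the first. TGFB1 lies on chromosome 19, whose 1022 measurable genes had a median difference of 0.10, the 10 on each side of it having 0.08; the part of this shift in its value was not tested.

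TGFB2, a ligand that depends on TGFBR3 for high-affinity binding, was close to the floor. Its brightest probe set, 220406_at, read 48.5 in the CA9 line against 43.4 in the vector line, a difference of 0.16. The 4 others lay below the floor on both arrays, from 10.5 to 30.4 in the CA9 line and from 10.4 to 23.8 in the vector line, with 3 higher and 1 lower in the CA9 line. LTBP1, the latent TGF-beta binding protein, gave probe sets that disagree. Probe set 202729_s_at read 178 in the CA9 line against 255 in the vector line, a difference of -0.52, while 202728_s_at had 86.9 and 84.9, a difference of 0.03. Their mean was -0.24.

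The bases just before the start sites of both ligand genes are shown because the promoters are of a different kind. The part of the promoters in the values was not tested. Sequences are from RefSeq, build GRCh38.p14, cover the 250 bases before the listed start and run 5′ to 3′ in the direction of transcription. Capitals mark matches on either strand to GGGCGG (the GC box), the CCAAT box, CAGAC (the short SMAD element), TGACTCA (the AP-1 site) and TATAAA (the TATA box). The TGFB1 window is chr19:41353923-41354172 on the minus strand, and the TGFB2 window is chr1:218345086-218345335 on the plus strand.
TGFB1: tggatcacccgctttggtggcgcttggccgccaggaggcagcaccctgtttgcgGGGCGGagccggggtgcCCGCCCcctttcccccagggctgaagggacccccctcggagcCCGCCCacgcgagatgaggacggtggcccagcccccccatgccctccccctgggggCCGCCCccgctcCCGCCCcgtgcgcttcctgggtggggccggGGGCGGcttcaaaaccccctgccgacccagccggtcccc
TGFB2: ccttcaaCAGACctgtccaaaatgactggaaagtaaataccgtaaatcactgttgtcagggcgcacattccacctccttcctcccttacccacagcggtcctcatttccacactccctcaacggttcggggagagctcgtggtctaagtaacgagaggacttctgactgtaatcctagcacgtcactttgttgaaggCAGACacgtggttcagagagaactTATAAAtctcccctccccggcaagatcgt
The TGFB1 window held 6 GC boxes and no match to the other motifs, with 76.8% G and C and 21 CpG. The TGFB2 window held 2 short SMAD elements and 1 TATA box and no GC box, with 50.4% G and C and 11 CpG, while the median over 35116 windows of the same length was 58% and 11. Of all those windows 42.6% held a GC box, 38.0% a short SMAD element, 32.0% a CCAAT box, 10.7% TATAAA and 4.20% an AP-1 site. A match describes letters and does not show that a factor binds.

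TGFBR1, the type I receptor kinase, had the lower intensity in the CA9 line in all 3 of its probe sets. Its brightest, 224793_s_at, read 233 in the CA9 line against 358 in the vector line, a difference of -0.62 or 1.54-fold lower. The others lay below the floor, at 23.8 against 28.1 and at 14.1 against 20.0. Of all measurable genes, 4.03% had a difference as low as that of the brightest. Among the 20 nearest measurable genes on chromosome 9, 16 were also below 0, with a median of -0.19, against 53.5% below 0 on the whole chromosome, and the part of this in the value of TGFBR1 was not tested.

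TGFBR2, the ligand-binding type II receptor, could scarcely be measured. Probe set 207334_s_at read 42.3 in the CA9 line against 24.0, below the floor, in the vector line. The measured difference was 0.82, and against the floor TGFBR2 was at least 1.04-fold higher in the CA9 line. The other probe set, 208944_at, lay below the floor on both arrays, at 30.5 and 28.2, with a difference of 0.11. TGFBR3, or betaglycan, the co-receptor that presents ligand to TGFBR2, was lower in both probe sets, at 63.7 against 77.2 (-0.28) and, below the floor, at 27.1 against 37.2 (-0.45). The 20 nearest measurable genes had a median of -0.20 for TGFBR3 and of -0.04 for TGFBR2. For TGFB2 it was -0.18, on the other side of 0 from the gene itself.

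SMAD2, a receptor-activated mediator, had the lower intensity in the CA9 line in all 6 probe sets, of which 5 lay above the floor. The brightest, 203076_s_at, read 632 in the CA9 line against 642 in the vector line, a difference of -0.02. Probe set 203075_at had 215 against 342, a difference of -0.67. Probe sets 226563_at and 203077_s_at had 256 against 319 (-0.32) and 171 against 218 (-0.35). Probe set 235598_at had 66.3 against 94.6 (-0.51), and 239271_at lay below the floor at 21.0 against 31.2. The brightest probe set was thus at -0.02, against -0.67 to -0.32 in the other 4 above the floor, and the mean of the 5 was -0.37. Under quantile normalization the brightest was at 0.06 and after loess removal at 0.07. The 4 others stayed below 0 in each alternative of scaling, while a pseudocount cannot change a sign. Of 231 genes with 5 probe sets above the floor, 14.7% had all 5 lower in the CA9 line. They come from a single pair of arrays and are no replicates.

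SMAD4, the common partner of the activated SMADs, was lower in both probe sets above the floor. Probe set 202527_s_at read 236 in the CA9 line against 309 in the vector line (-0.39), and 235725_at had 130 and 148 (-0.19). Of its 3 probe sets below the floor 2 were lower and 1 higher, the last by 0.03. The 3 members TGFB1, SMAD4 and LTBP1 had 2 probe sets above the floor, and both lay on the same side of 0 in the first 2 of these genes but not in the last, while 62.8% of 3580 such genes had both on the same side. SMAD2 and SMAD4 both lie on chromosome 18, where the 183 measurable genes had a median of -0.08. The 20 nearest measurable genes of SMAD2 had a median of 0.01, and those of SMAD4 one of -0.09. The same median was -0.09 for SMAD3, -0.18 for SKIL and -0.16 for LTBP1.

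SMAD3, the other receptor-activated mediator, had no common direction among its 4 probe sets. Probe sets 205398_s_at and 205397_x_at had 80.2 against 73.0 (0.14) and 71.4 against 61.7 (0.21), both higher in the CA9 line. Probe sets 218284_at and 205396_at had 55.1 against 58.2 (-0.08) and 36.1 against 40.9 (-0.18), the last with the CA9 line below the floor. The mean of the 4 was 0.02. SKIL, a repressor of SMAD complexes that is itself a target of the pathway, had 1 probe set above the floor, 225227_at, at 149 in the CA9 line against 194 in the vector line, a difference of -0.38. Its 4 others lay below the floor and were split, 2 higher and 2 lower.

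The windows before the starts of SMAD2 and SMAD4 are shown because both genes were lower in several probe sets. SMAD2 has 2 listed starts, and the window is that of the start farther upstream, chr18:47930873-47931122 on the minus strand. The SMAD4 window is chr18:51029963-51030212 on the plus strand, and the capitals have the same meaning as for the ligand genes.
SMAD2: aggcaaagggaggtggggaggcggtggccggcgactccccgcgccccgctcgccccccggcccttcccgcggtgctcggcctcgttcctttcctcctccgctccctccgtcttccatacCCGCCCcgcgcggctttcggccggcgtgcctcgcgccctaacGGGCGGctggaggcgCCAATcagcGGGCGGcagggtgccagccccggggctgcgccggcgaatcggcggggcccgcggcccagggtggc
SMAD4: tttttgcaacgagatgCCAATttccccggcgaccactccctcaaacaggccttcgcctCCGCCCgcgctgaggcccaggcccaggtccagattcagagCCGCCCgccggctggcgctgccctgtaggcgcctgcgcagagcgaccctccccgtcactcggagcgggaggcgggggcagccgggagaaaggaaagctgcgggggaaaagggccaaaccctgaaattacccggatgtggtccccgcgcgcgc
Both windows held GC boxes, 3 in SMAD2 and 2 in SMAD4, and 1 CCAAT box each, with no short SMAD element, AP-1 site or TATA box. They had 78.4% and 68.4% G and C. Over all starts listed for the 10 members, 25 windows in all, 12 held a GC box, 11 a CCAAT box and 11 a short SMAD element. The windows of a gene can overlap, so they are not independent.

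**Figure D2:**
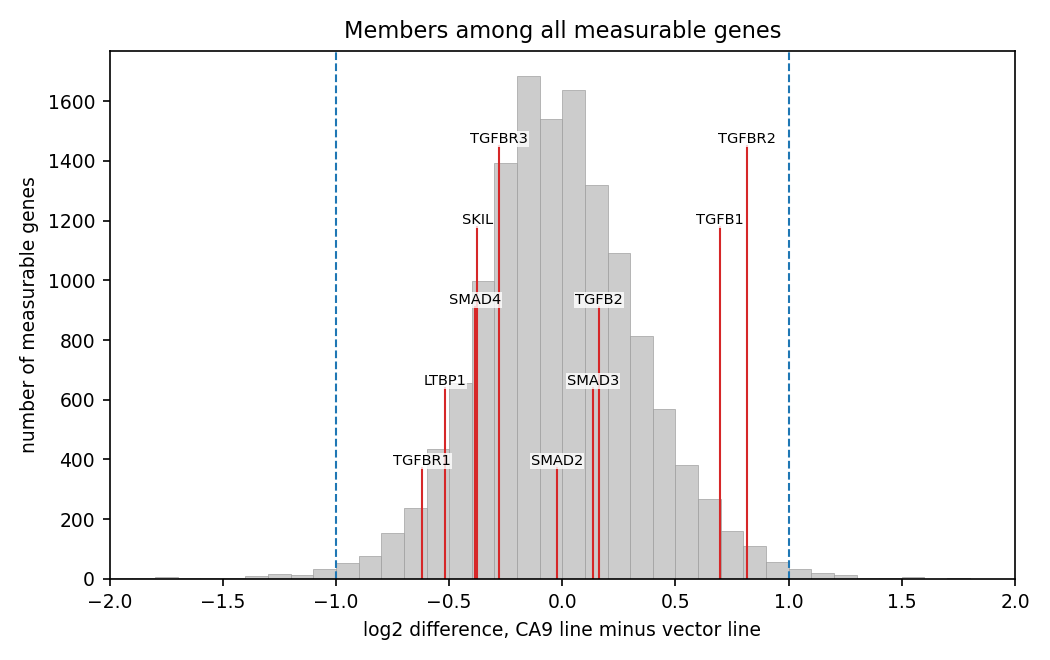
Histogram of the log2 differences of the 13823 measurable genes in bins of 0.1, drawn from -2 to 2, with the brightest probe set of each of the 10 members as a vertical line and 2-fold as dashed lines. TGFBR2 at 0.82 and TGFB1 at 0.70 lie in the upper part, TGFBR1 at -0.62 and LTBP1 at -0.52 in the lower part, and none passes 2-fold; line heights only separate the names.

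The rest of the pathway was described by 8 lists of other genes, written with earlier results of these data known, of which 141 genes in all were measurable. Over these the median difference was 0.00. Of the 141 genes 4 were 2-fold apart, against 1.35% of all measurable genes. THBS1 and COL4A1 were lower and VIM and LDLRAD4 higher in the CA9 line. With all probe sets of a gene averaged none of the listed genes was 2-fold apart, against 92 of 11972 measurable genes. In that setting LDLRAD4 is no longer measurable. At 0.5 on the log2 scale the share was 15.6%, close to the 15.3% of all measurable genes.

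Among 7 other measurable ligands, 6 were above 0 and the median was 0.20. For this and the counts below, the share of all measurable genes above 0 was 45.9%. INHBC, a subunit of the activin and inhibin family, read 239 in the CA9 line against 151 in the vector line, a difference of 0.67. Its second probe set, below the floor, was at -0.40. GDF11, a relative of myostatin, was at 0.34 in its brightest probe set, but 3 of its 5 were lower and their mean was 0.04. The activin subunit INHBB, nearer the floor, had 62.1 against 51.3 (0.28). The third TGF-beta ligand, TGFB3, had 77.8 against 81.9 (-0.07). Its second probe set was at 0.42, with the vector line below the floor. INHBA, the main activin subunit, lay below the floor on both arrays.

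Among 13 measurable genes of latency and activation the median was -0.13, with 5 above 0 and 7 below. THBS1, thrombospondin, which can free the latent ligand and is also induced by it, read 119 in the CA9 line against 376 in the vector line, 3.17-fold lower. Its 3 other probe sets above the floor were lower too, by differences of -1.73, -2.02 and -1.00, the last with the CA9 line below the floor. The 3 below the floor on both arrays were higher by up to 0.07, and the mean of all 7 was -0.89. ITGAV, the integrin chain that binds the propeptide of the ligand, had 345 against 687, a difference of -1.00 in its only probe set and just short of 2-fold, and equal array medians put it at -1.06 and loess removal at -0.89. Of the beta chains that can pair with it, ITGB1 was at -0.31, with its 2 other probe sets above the floor at -0.17 and -0.21, and ITGB8 at -0.29 in its only one above the floor. ITGB5 and ITGB3 gave probe sets that disagree, at -0.37 and 0.37 for ITGB5 and at -0.13 and 0.20 for ITGB3. In the last the vector line was below the floor. Of the binding proteins related to LTBP1, LTBP4 was higher in the CA9 line in all 4 probe sets, by 0.13 in the brightest and up to 1.06, with a mean of 0.60. LTBP3 was higher in all 3, by 0.06 in the brightest and up to 0.58, the last with the vector line below the floor. LTBP2 was at -0.28 with a second probe set, below the floor, at 0.17. FURIN, the protease that cuts the precursor, had the same intensity of 133.0 on both arrays.

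Of 6 measurable extracellular inhibitors FSTL1 was at -0.48, with a second probe set at 0.06, and FMOD, set against the floor, was lower by at least 1.37-fold. BGN was at -0.34, also with a second probe set at 0.06, and DCN, a proteoglycan that binds the ligand, was equal on both arrays.

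Of 24 other receptors and receptor regulators 14 were above 0 and the median was 0.03. BMPR2, the type II receptor for bone morphogenetic proteins, had 126 against 229 (-0.86). Its other probe sets above the floor were at 0.00, 0.12, -0.08 and -0.72, the last with the CA9 line below the floor. The mean of all 6 was -0.28. TAB1, an activator of the kinase TAK1, had 96.4 against 60.1 (0.68). ZFYVE16, an endosomal SMAD-binding protein, had 121 against 188 (-0.64), with a second probe set above the floor at -0.11. FKBP1A, which binds the type I receptor and keeps it inactive, was at 0.60, with 2 more probe sets at 0.88 and 0.59 and the last at -0.61. ENG, an endothelial co-receptor, was at 0.12.

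The other SMADs had a median of -0.20 over 4 measurable genes. SMAD9, of the bone morphogenetic protein branch, had 321 against 489 (-0.61), but its second probe set was at 0.13. SMAD1 was at -0.29 with a second probe set at 0.09. SMAD6, an inhibitory SMAD, was at -0.11 in its brightest probe set, but the 3 others were higher in the CA9 line. They were higher by 0.05 and, with the vector line below the floor, by 0.83 and 1.00. The mean of the 4 was 0.44. SMAD5 was at 0.05 in its brightest, with the 4 others lower and a mean of -0.16. SMAD7, the inhibitory SMAD that TGF-beta induces, lay below the floor at 12.3 in the CA9 line against 10.2 in the vector line, so it gives no reading here.

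Of 38 measurable SMAD regulators and nuclear partners 19 were above 0 and 19 below. TRIM33, a ubiquitin ligase that binds SMAD2, SMAD3 and SMAD4, was higher in the CA9 line in 3 probe sets above the floor, at 250 against 130 (0.94), 217 against 115 (0.91) and 59.2 against 40.9 (0.53). Its last probe set, below the floor, was at 0.06. TRIM33 passed 2-fold under quantile normalization (1.02) and loess removal (1.03). It was at 0.88 with equal array medians, 0.86 with a pseudocount of 16 and 0.61 with all probe sets averaged. LDLRAD4, an inhibitor of SMAD activation that TGF-beta induces, had 137 against 67.9, 2.02-fold higher, while its 3 other probe sets lay below the floor and were lower. With equal array medians it was at 0.96, short of 2-fold. SIN3A, a corepressor, was at -0.67, with further probe sets above the floor at -0.52 and 0.00 and the last, below the floor, at 0.19. SKI, the close relative of SKIL, was at -0.21 with a second probe set at 0.15. The corepressor TGIF1 was at 0.06, and also at 0.06 and at -0.58 in its other probe sets, the last with the CA9 line below the floor. PMEPA1, a feedback inhibitor, was at -0.35, with all 3 of its probe sets lower.

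Genes known to be induced by TGF-beta had a median of -0.02 over 47 measurable genes, with 21 above 0 and 25 below. VIM, the mesenchymal intermediate filament vimentin, read 2867 in the CA9 line against 1131 in the vector line, 2.53-fold higher, in its only probe set above the floor. COL4A1, a basement membrane collagen, had 102 against 206, 2.03-fold lower, while its second probe set was at -0.02. It fell short of 2-fold under quantile normalization (-0.96), loess removal (-0.95) and a pseudocount of 16 (-0.92). CCN2, a matricellular growth factor, had 1056 against 757 (0.48). CDKN2B, a cell cycle inhibitor, was higher by at least 1.04-fold when the floor stands for the vector line, while its dimmer probe set was at -0.16, and CDKN1A was at -0.15. Genes known to be repressed by TGF-beta had a median of -0.02 over 10 measurable genes, with ID2 at 0.34 and at -0.18 in its second probe set, ID1 at -0.32 and MYC at -0.29.

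**Figure D3:**
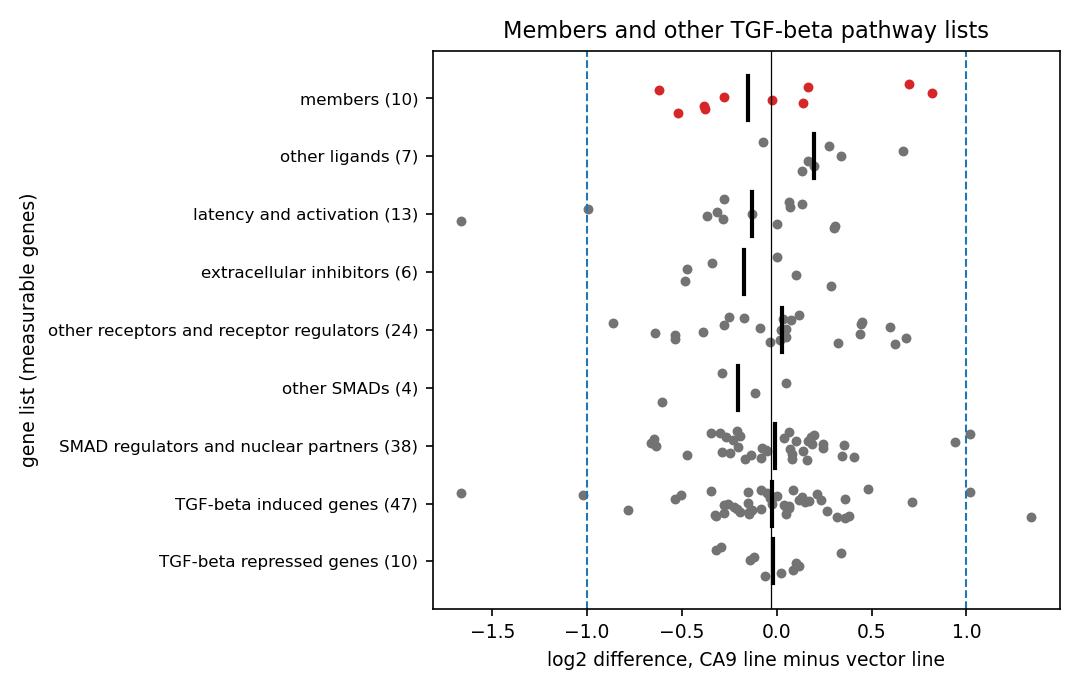
Log2 differences of the brightest probe sets of measurable genes, 1 point per gene, for the 10 members and 8 lists of other pathway genes, with the median of each list as a thick line, that of all measurable genes (-0.03) as a thin line and 2-fold as dashed lines. The medians run from -0.20 for the other SMADs to 0.20 for the other ligands, and THBS1 at -1.66 and VIM at 1.34 lie farthest out.

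Markers and controls were read beside these values. Of 13 epithelial markers 9 were measurable, but EPCAM, CDH1, ESRP1 and GRHL2, which define most epithelial lines, lay below the floor on both arrays. The summed intensity of the epithelial markers was 760 in the CA9 line against 777 in the vector line, that of 14 fibroblast and endothelial markers 3382 and 3090 and that of 9 blood cell markers with a probe set 458 and 446. Within the epithelial sum DSP, a desmosome protein, read 49.4 in the CA9 line against 180.0 in the vector line, 3.64-fold lower, while 6 of the 9 measurable markers were above 0, with KRT14 at 0.63, KRT8 at 0.57 and KRT18 at 0.52. Of 6 measurable blood cell markers 4 were above 0 and the median was 0.27. The monocyte marker CD14 read 57.1 in the CA9 line against a value of 36.9, under the floor, in the vector line. The leukocyte marker PTPRC had 30.1, under the floor, against 58.1. Of 9 measurable fibroblast and endothelial markers 6 were above 0 and 2 below, with a median of 0.12. COL3A1 had 2538 against 2339, most of the sum of that list. THY1 had 198 against 135 (0.55), with all 3 of its probe sets higher in the CA9 line. The fibroblast markers PDGFRA, LUM and FAP were below the floor on both arrays. The part of other cells in the values of the pathway was not tested. The 3′ minus 5′ log2 signal for ACTB was 0.67 for the CA9 line against 0.73 for the vector line, and for GAPDH 0.06 against 0.04. Hybridisation spike-ins had a median difference of 0.41, with 17 of 18 above 0, and poly-A spike-ins one of -0.20, with 3 of 24 above 0. In size the first exceeds the difference of SMAD4 (-0.39). The part of such shifts in the values of the members was not tested.

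**Figure D4:**
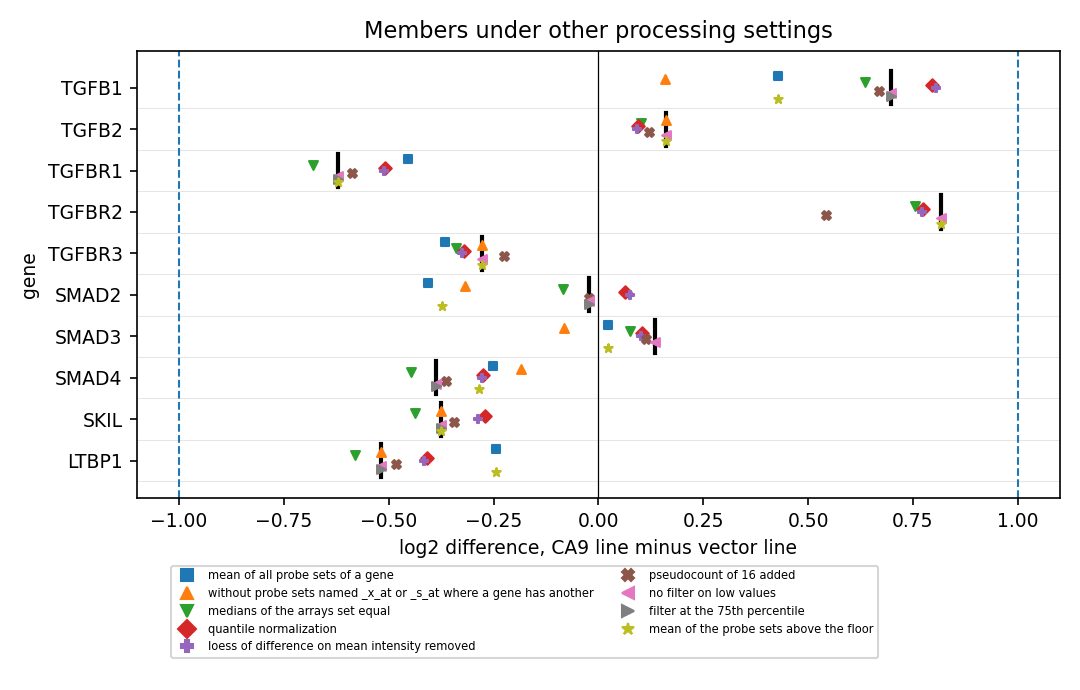
Log2 difference of each of the 10 members under the main setting (black bar) and under up to 9 other settings (symbols, named in the legend), with 2-fold as dashed lines. No value passes 2-fold; SMAD2 and SMAD3 are the members whose values fall on both sides of 0, and TGFB1 runs from 0.16 to 0.81.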

How the data were processed

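Biotinylated cRNA from 5 µg of total RNA was hybridised to 1 Affymetrix array per line. The deposited intensities were made by the authors with RMA, per the submitters' processing notes; its version is not given in the sources used here. The output of RMA is usually log2, but the deposited intensities run from 6.79 to 17091 and were read as linear, then put on log2 without a pseudocount. Gene symbols came from the platform annotation (41097 probe sets with 1 gene), updated through RefSeq (GRCh38.p14). Values carry no build, so neighbours were taken by order only. The 2-fold size rule replaced a test. The number of arrays limits the precision. The members and lists were chosen with earlier results of these data known. The genes named were all members, the listed genes 2-fold apart or farthest from 0 (up to 3 a list), and fixed pathway genes, of which 1 is not reported here; ITGB1, ITGB3, ITGB8, FURIN, INHBA, DCN, FKBP1A, CDKN2B, CDKN1A and the markers were added after their values were seen. Python 3.11.15, numpy 2.4.6, pandas 2.3.3, statsmodels 0.14.6 and matplotlib 3.10.9 were used.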

Additional observations from a re-analysis of the deposited data

How the results depend on the processing

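Under 9 other settings no member reached 2-fold. The members' median ran from -0.38 to -0.10. The sign of a member gene was kept in 78 of 81 values and that of a member probe set in 139 of 144. Part of these values were fixed in advance. A pseudocount cannot change the sign of a probe set, and another floor leaves the value of the brightest probe set as it was. Of the 10 genes 8 kept the sign throughout. SMAD2 turned under quantile normalization and loess removal, and leaving out _x_at and _s_at probe sets put SMAD3 at -0.08. Members 0.5 or more apart numbered 4, and 0 with all probe sets averaged, 1 on leaving out _x_at and _s_at probe sets and 2 with the mean of the probe sets above the floor, an alternative added after the data were seen. TGFB1 fell to 0.16 in the second of these, since only its dimmer probe set is left. SMAD2 was at -0.41 with all probe sets averaged and at -0.37 with those above the floor. All genes 2-fold apart numbered 186, and 92 with probe sets averaged, 93 with a pseudocount of 16 and 122 with a floor at the 75th percentile, at which fewer genes are tested. Pathway genes 2-fold apart numbered 4, and 0 with probe sets averaged and 2 with the pseudocount. The list median of latency and activation ran from -0.31 to 0.03 and that of the extracellular inhibitors from -0.48 to 0.01. Those of SMAD regulators (-0.08 to 0.07) and repressed genes (-0.08 to 0.08) also fell on both sides of 0. So did those of induced genes (-0.09 to 0.05) and other receptors (-0.04 to 0.08). The other ligands stayed above 0 and the other SMADs below. The cause of the other shifts was not tested. TGFB2, TGFBR2, TGFBR3 and SMAD3 give no value at the higher floor, TGFB2, TGFBR2 and SKIL none with all probe sets averaged, and TGFBR1 and TGFBR2 none without _x_at and _s_at probe sets. Intensities near or below the floor limit what can be read of TGFBR2, TGFB2 and SMAD7. No paired analysis was possible because each line has 1 array and the labels carry no replicate numbers.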
